A study of Mus musculus with 61 samples.

Results

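The genes described here encode the nuclear subunits of respiratory complex I, in skeletal muscle of 8 inbred mouse strains. They were taken as all rows of the count table whose symbol was Ndufa, Ndufb, Ndufc, Ndufs, Ndufv or Ndufab followed by a number, which gave 37 of 19462 genes. All 37 had enough counts to be tested. The strains, from which Diversity Outbred mice are bred, carry the label names AJ, B6, 129, NZO and WSB (8 libraries in each group) and NOD, Cast and PWK (7 in each). For every one of the 61 libraries the diet was given as 45 percent fat, and the treatment note names a diet high in fat and sugar, so there was no other diet and no control group. Neither age nor sex was given, and nothing says whether each library is from its own animal. The p-values thus reflect differences among libraries of a strain, which may be partly technical.

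Complex I takes electrons from NADH, passes them through a flavin and a chain of iron-sulfur clusters to ubiquinone, and pumps protons across the inner mitochondrial membrane. Its peripheral arm reaches into the matrix and is built from the N module, which oxidises NADH, and the Q module, which reduces ubiquinone. Its membrane arm holds the proton pumps, whose core subunits are encoded by the mitochondrial genome. The nuclear core subunits of the peripheral arm are conserved from bacteria, and the supernumerary subunits surround the core and are needed for assembly or stability. Muscle relies on the complex for sustained contraction, and slow fibres and the most oxidative fast fibres hold more mitochondria than other fibres. Ndufa4 carries a complex I name but its protein is now counted to complex IV, and it was kept because the symbol rule includes it.

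Library totals ran from 17100000 to 65200000 estimated counts (median 33700000). The 37 genes held 0.127 to 0.559% of a library's counts (median 0.473%). One library, B6 replicate 5 (B6_5), stood apart, with 46.3% of its counts on the ribosomal RNA gene Rn18s-rs5. Muscle markers were high in every library, with Myh4, the fast myosin heavy chain, between 41500 and 90200 CPM (counts per 1000000, scaled by the TMM-adjusted library size). Markers of other cell types differed between libraries: 3 libraries exceeded 3000 CPM in the sum of 7 hepatocyte markers and 7 libraries exceeded 50 CPM in that of 7 lymphocyte markers. Each strain held libraries with more Xist than Ddx3y counts and libraries with the reverse, so the spread within a strain can include sex. In bulk muscle, fewer fibres or mitochondria of a kind and less RNA in each cannot be told apart.

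Some of these genes share reads with other loci, which bears on the values that follow. For 8 of the 37, a processed pseudogene elsewhere in the genome matched the transcript at 95% identity or more, and for 2 of the 8, Ndufb4 and Ndufab1, such a copy had its own row in the count table. Exons of 16 members overlapped those of another gene. Copies not printed include Gm15920 of Ndufa12 (99.5% identity over 402 bases) and Gm12251 of Ndufs3 (98.6% over 792), without rows in the count table. Whether reads shared with these enter the results was not tested. The copies of Ndufb4, Ndufab1 and Ndufs5 are printed here against their source genes. They are from GENCODE M21 transcripts on GRCm38 and read 5′ to 3′ on the coding strand. Ndufb4 lies at chr16:37647170-37654453 on the minus strand, and its copy Ndufb4c, listed in the count table as Gm3244, at chr15:73809507-73809896, also on the minus strand. Over the 390 coding bases the pair had 0 differences in this reference, so 1 sequence, of which bases 1 to 300 are shown, stands for both. By the reference alone, no read within it can be assigned to either locus. Whether the pair is identical in every strain was not tested.
Ndufb4 and Ndufb4c: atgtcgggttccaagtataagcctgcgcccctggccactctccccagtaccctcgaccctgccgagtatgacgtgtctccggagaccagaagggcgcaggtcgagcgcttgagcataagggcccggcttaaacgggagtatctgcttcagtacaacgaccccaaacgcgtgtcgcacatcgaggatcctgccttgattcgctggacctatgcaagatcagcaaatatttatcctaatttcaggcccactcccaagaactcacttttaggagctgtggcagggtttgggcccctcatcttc
Ndufab1 (chr7:122085403-122101886, minus strand) and its copy Gm4459 (chr7:139659688-139660155, minus strand) were identical at 467 of 468 compared bases. The difference was G137A, with positions counted from 1 at the first coding base and the base of Ndufab1 first. Coding bases 107 to 167 are shown with the differing base in capitals.
Ndufab1: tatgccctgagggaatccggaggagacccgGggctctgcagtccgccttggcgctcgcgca
Gm4459: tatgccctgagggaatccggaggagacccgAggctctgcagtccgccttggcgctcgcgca
Ndufs5 (chr4:123712710-123718202, minus strand) has the copy BC002163 (chr16:42955631-42955949, plus strand), which was identical at 317 of 319 bases and had no row in the count table. The differences were T81C and A105G, counted in the same way, and coding bases 51 to 135 are shown.
Ndufs5: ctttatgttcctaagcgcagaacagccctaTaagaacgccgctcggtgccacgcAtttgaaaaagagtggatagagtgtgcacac
BC002163: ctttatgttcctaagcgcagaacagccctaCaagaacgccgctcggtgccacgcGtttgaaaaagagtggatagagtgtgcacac

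All 37 members differed among the 8 strains at an adjusted p under 0.05, where 85.5% of all 16682 genes tested did. This adjusted p, and every other one in the text unless another test is named, comes from edgeR's quasi-likelihood F test with Benjamini-Hochberg adjustment over all genes tested. The differences were small. The range between the highest and lowest strain mean had a median of 0.39 log2 units over the members (0.23 to 1.41), against 0.91 over all genes tested and 0.56 over the 2456 genes at least as abundant as the lowest member. Only 1 member, Ndufb4, ranged by 1 log2 unit or more, where 7626 of all 16682 genes did. The 7 core subunits had a median range of 0.34 and the 28 supernumerary subunits of 0.41. Smallest was the range of Ndufa2 at 0.23, followed by Ndufs7 at 0.27.

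**Figure D1:**
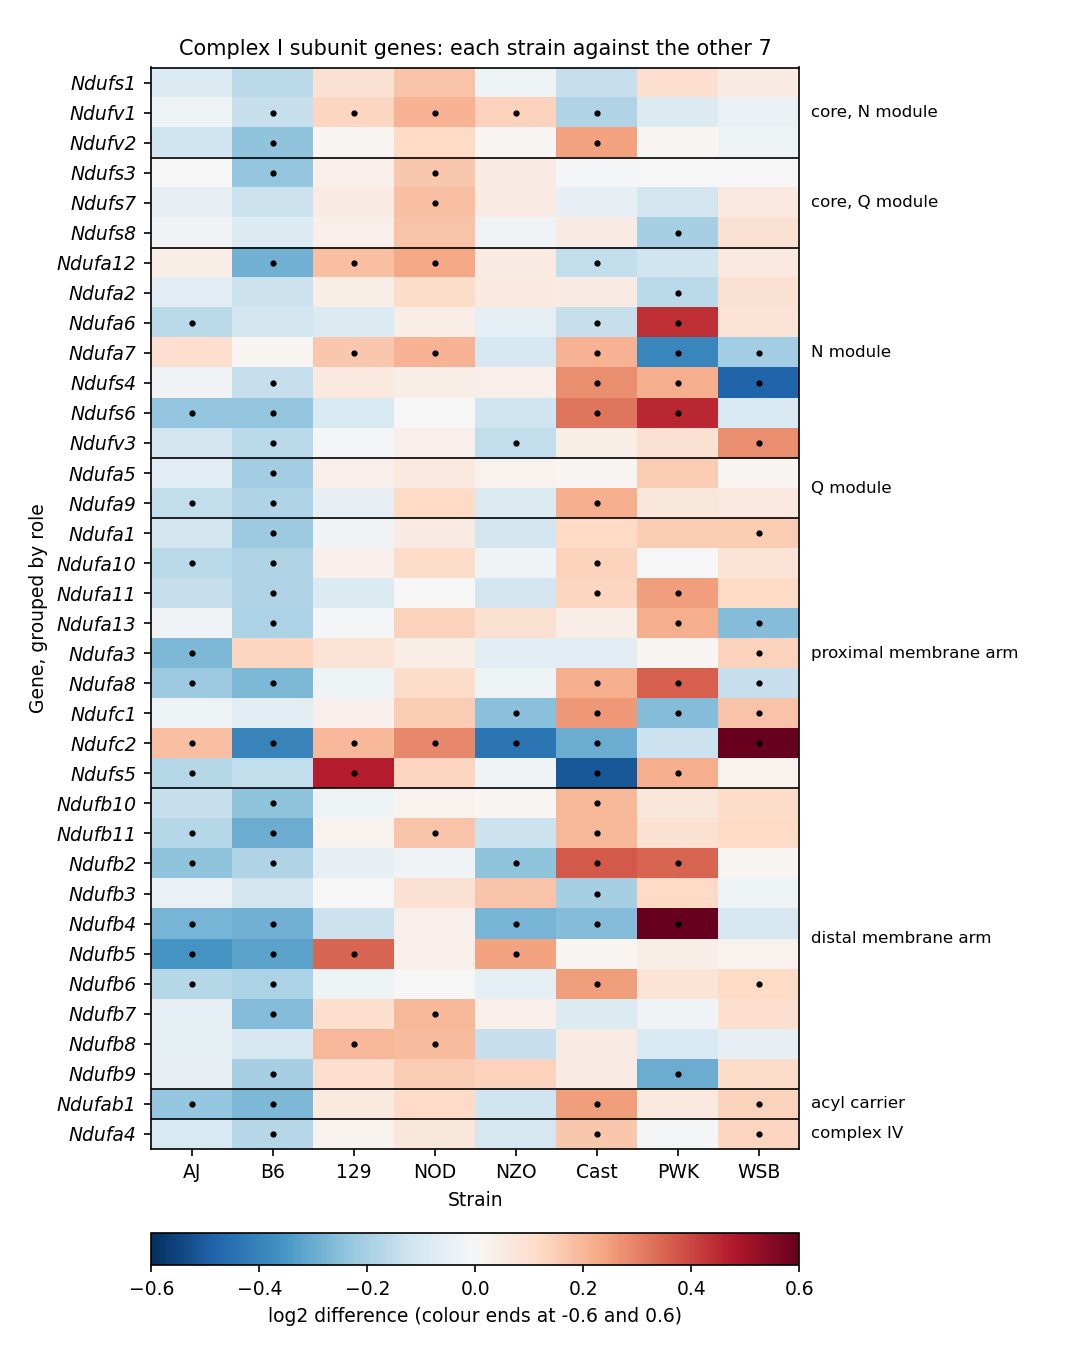
Log2 difference of each strain (columns) from the equally weighted mean of the other 7, for 36 genes (rows) grouped by their place in the complex. Red is higher, blue lower, black points mark an adjusted p under 0.05, and colours stop at 0.6 and -0.6, which Ndufb4 in PWK (1.32) exceeds. The B6 column is lower in 34 of 36 rows.

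Levels can be compared between genes only per length. Per kilobase of the annotated transcript, Ndufa4 had the highest mean level (348 CPM per kb), and Ndufb8 (293) and Ndufb9 (270) were also high. Subunits of 1 complex stood far apart on this scale: the core subunit Ndufs8 was at 54.7 CPM per kb. The lowest values, 27.6 for Ndufab1 and 13.2 for Ndufb2, belong to genes whose annotated transcripts are long, 3479 and 4371 bases, and can understate them if shorter transcripts are made.

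Among the core subunits, Ndufv1, which binds NADH and the flavin, was lower in Cast and higher in NOD. It was at 238 ± 17.5 CPM in Cast (SD, n = 7) and at 301 ± 16.1 CPM in NOD (n = 7), with log2 differences from the mean of the other strains of -0.18 ± 0.05 (SE, adjusted p = 0.00273) and 0.21 ± 0.05 (adjusted p = 0.00125). Its N-module partner Ndufv2, an iron-sulfur subunit, was higher in Cast, at 214 ± 39.5 CPM (0.24 ± 0.05, adjusted p = 0.000104), but the 7 Cast libraries ran from 163 to 264 CPM. Without the 10 libraries high in hepatocyte or lymphocyte markers, 3 of them from Cast, the Ndufv2 difference was 0.10 and no longer passed (adjusted p = 0.204). Of the Q module and the rest of the N module, Ndufs1, Ndufs3, Ndufs7 and Ndufs8 had strain differences no larger than 0.23 in size.

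Among the supernumerary subunits of the N module, Ndufs4 stood out in WSB. Ndufs4 holds the N module to the rest of the complex, and its loss causes Leigh syndrome in people and a model of it in mice. The 8 WSB libraries had 62.2 to 84.4 CPM (median 72.4), and the 53 others 71.7 to 130 (median 99.0). The lowest libraries of other strains, B6_5 at 71.7 and NZO_8 at 78.2, lay within the WSB range, and 3 WSB libraries lay below every other library. The log2 difference was -0.48 ± 0.06 (adjusted p = 4.70e-10), with Cast and PWK higher than the rest (0.28 ± 0.06 and 0.22 ± 0.06). Ndufs6, a zinc-binding subunit added late in assembly, was higher in PWK (85.6 ± 6.76 CPM, n = 7) and in Cast (79.3 ± 13.5 CPM, n = 7) than in the other 6 strains, whose means ran from 56.6 to 65.2 CPM. The PWK difference was 0.45 ± 0.06 (adjusted p = 1.89e-08) and the Cast difference 0.32 ± 0.06 (adjusted p = 1.34e-05). Without the 10 libraries high in hepatocyte or lymphocyte markers the Cast difference was 0.17 and no longer passed. Ndufs6 overlaps Mrpl36 on the opposite strand, at 11.3 to 13.0 CPM. It also has a pseudogene copy, Ndufs6b (96.6% identity over 348 bases), with no row in the count table. Whether reads shared with that copy enter these differences was not tested.

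PWK also held the extremes of 2 more N-module subunits, in opposite directions. Ndufa6, which binds the acyl carrier protein Ndufab1 within the complex, had 96.3 to 115 CPM in the 7 PWK libraries (median 109) and 53.6 to 96.0 in all others (median 81.2). All 7 PWK libraries lay above every other library (0.44 ± 0.05, adjusted p = 2.77e-10). Ndufa7 was lowest in PWK, at 36.6 to 45.4 CPM (median 41.5) against 31.7 to 67.4 elsewhere (median 55.0), a difference of -0.39 ± 0.06 (adjusted p = 1.08e-06). The PWK values of Ndufa7 lay within the range of the others, whose lowest library was NZO_1.

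In the proximal membrane arm, Ndufc2 and Ndufs5 had the widest ranges. Ndufc2, a small subunit of the membrane arm, had 61.6 to 84.6 CPM in the 8 WSB libraries (median 71.8) and 29.0 to 65.7 in the 53 others (median 49.3). Of the 8 WSB libraries, 6 lay above every library of another strain. The strains formed a series: WSB at 72.8 ± 8.44 CPM, then NOD at 60.3 ± 4.06, 129 at 57.0 ± 4.49 and AJ at 56.6 ± 4.62, then PWK at 46.8 ± 4.75, Cast at 42.2 ± 9.13, B6 at 39.7 ± 4.44 and NZO at 38.7 ± 3.89. Neighbours within the middle trio and within the lowest 4 differed by less than the larger of their SDs. Against the mean of the other strains, WSB was higher by 0.60 ± 0.06 (adjusted p = 4.82e-12), while NZO (-0.44 ± 0.07), B6 (-0.40 ± 0.07) and Cast (-0.30 ± 0.07) were lower. Ndufc2 (chr7:97400003-97407802, plus strand) has no near-identical copy and overlaps no other gene's exons.

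Ndufs5, on the intermembrane face of the proximal arm, was highest in 129 and lowest in Cast. The 8 libraries of 129 had 79.5 to 115 CPM (median 94.3) and the 7 of Cast 44.7 to 60.9 (median 55.7), with no overlap between these strains. Differences from the mean of the other strains were 0.47 ± 0.06 for 129 (adjusted p = 4.53e-09) and -0.51 ± 0.07 for Cast (adjusted p = 6.45e-09). Its copy BC002163, printed above, differs at 2 bases within the coding sequence, and how the authors' counting treated reads shared with it is not given in the sources used here. Ndufa8, another subunit on that face, was higher in PWK (148 ± 18.8 CPM, n = 7; 0.36 ± 0.06, adjusted p = 4.01e-07) and lower in B6 (100.0 ± 11.6 CPM, n = 8; -0.27 ± 0.06, adjusted p = 0.000153).

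**Figure D2:**
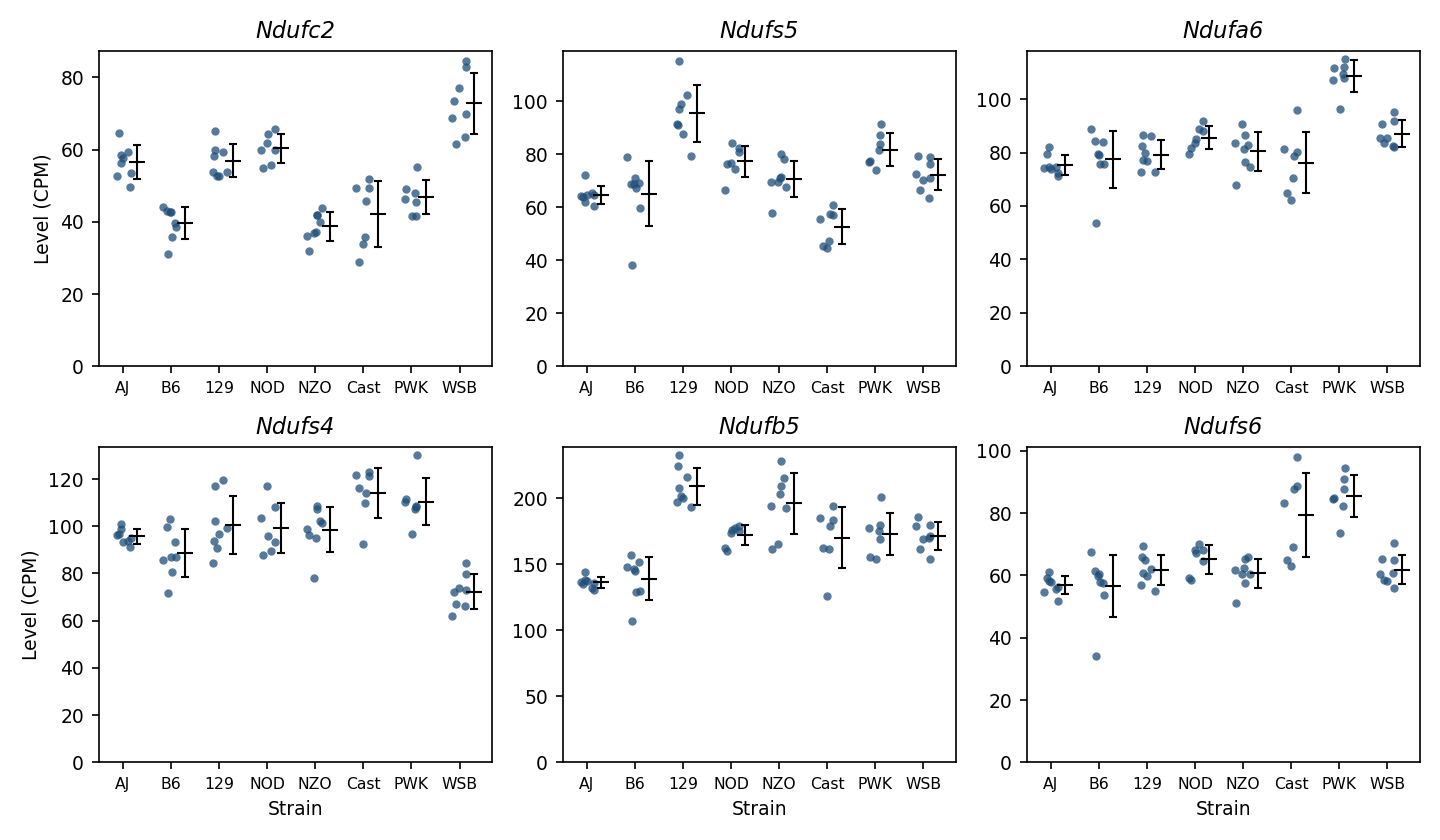
Level in CPM (y axis, from 0) of 6 members in each library (points) by strain (x axis), with the mean and SD beside the points (7 or 8 libraries). Each panel has its own scale. Ndufc2 is highest in WSB, Ndufs5 and Ndufb5 in 129 and Ndufa6 in PWK, and Ndufs4 is lowest in WSB.

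In the distal membrane arm, the largest difference of all members, that of Ndufb4, disappeared once its identical copy was counted with it. As deposited, Ndufb4 had 85.1 to 111 CPM in the 7 PWK libraries (median 97.0) and 22.4 to 47.1 in the 54 others (median 39.2), and the log2 difference was 1.32 ± 0.06 (adjusted p = 1.60e-26). The copy went the other way, with 0.542 ± 0.238 CPM in PWK (n = 7), while the means of the other strains ran from 50.4 to 59.1 CPM. Summed, the pair had 97.3 CPM in PWK and 87.0 to 103 CPM in the strain means overall. With the copies' counts added, the PWK difference was 0.05 (adjusted p = 0.582), and the lower calls in AJ, B6, NZO and Cast were lost as well. In the deposited rows, the counts of this sequence lay on both loci in 7 strains and almost wholly on Ndufb4 in PWK.

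**Figure D3:**
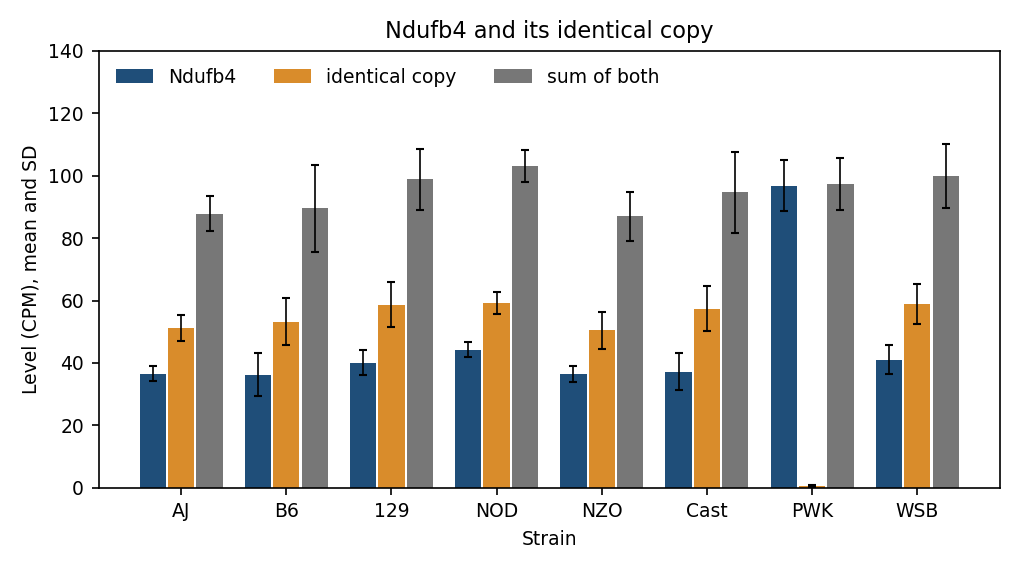
Mean level in CPM (y axis, from 0; error bars are SD, 7 or 8 libraries) of Ndufb4, of its identical copy and of their sum, by strain (x axis). PWK alone has almost no counts on the copy (0.542 CPM) and its sum (97.3 CPM) lies within the range of the other strains.

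Ndufab1, the mitochondrial acyl carrier protein, also had a copy with its own row, which was low in 1 strain. This copy, Gm4459, was at 4.98 ± 2.22 CPM in Cast (n = 7) and at strain means of 19.0 to 29.0 CPM in the other strains, while Ndufab1 itself was highest in Cast, at 111 ± 17.3 CPM (0.25 ± 0.05, adjusted p = 6.95e-05). With the copies' counts added, Ndufab1 was at 116 ± 18.3 CPM in Cast, below the means of WSB (133), 129 (127), NOD (125) and PWK (122), and the Cast difference was -0.01 (adjusted p = 0.943). The lower calls of Ndufab1 in AJ and B6 were kept in that sum (-0.21 and -0.26).

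Ndufb5, a distal-arm subunit, separated the strains into more than 1 level. The 8 libraries of 129 had 193 to 233 CPM (median 205), the 8 of AJ 130 to 144 (median 136) and the 8 of B6 107 to 157 (median 145). Libraries of 129 did not overlap those of AJ or B6. Differences were 0.35 ± 0.05 in 129 (adjusted p = 1.10e-07), 0.24 ± 0.05 in NZO (adjusted p = 0.000126), -0.36 ± 0.05 in AJ (adjusted p = 1.89e-07) and -0.32 ± 0.05 in B6 (adjusted p = 2.04e-06). Mrpl47, which overlaps it on the opposite strand, was at 12.6 to 28.6 CPM, with its highest strain means in Cast and PWK (24.2). Like Ndufb5, Mrpl47 was higher in 129 (19.2) and NZO (17.9) than in NOD (15.9), AJ (14.6) and B6 (12.6). Of the deposited Ndufb5 counts 14.8% were whole, and whether both genes share reads was not tested. Ndufb2 was higher in Cast (71.6 ± 11.8 CPM) and PWK (71.0 ± 3.49 CPM) than in the other strains, whose means ran from 49.4 to 57.7 CPM.

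In B6, 26 members were lower and 0 higher, where 11.2% of all genes tested were lower and 15.0% higher (26.2% either way). The median difference over the members was -0.18, against 0.01 over all genes tested, and B6 was the lowest strain for 20 of the 37. All modules took part: 4 of the 7 core subunits, 6 of the 9 supernumerary subunits of the proximal arm and 8 of the 10 of the distal arm were lower. Of the 17 members with neither a copy nor an exon overlap, 12 were lower. The 7 B6 libraries other than B6_5 had 3974 to 4553 CPM summed over the members, and B6_5 had 3044.

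B6_5, the library rich in ribosomal RNA, was the lowest B6 library for all 37 members. Without it, 15 members were lower and 1 higher, where 9.24% of all genes tested were lower and 13% higher, and the median difference was -0.13. Lower without it were, among others, Ndufc2 (-0.35, adjusted p = 6.36e-05), Ndufb5 (-0.27, adjusted p = 3.98e-05), Ndufa12 (-0.25, adjusted p = 8.49e-05), Ndufa8 (-0.22) and Ndufab1 (-0.22). The 1 higher member was Ndufa3 (0.19, adjusted p = 0.00942). Lymphocyte markers were also higher in B6 for 5 of 7 genes, with sums of 3.73 to 143.5 CPM over its libraries (median 5.27). Without the 10 libraries high in hepatocyte or lymphocyte markers, of which 2 are from B6, 17 members were lower and 0 higher (10% and 13.1% of all genes tested). B6_5 was kept in that check, and leaving it out as well was not tested.

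The other nuclear-encoded complexes moved with complex I in B6. All 9 complex III genes measured, 9 of 13 complex IV genes, 12 of 15 ATP synthase genes and 2 of 4 succinate dehydrogenase genes were lower and none was higher. Without B6_5, the numbers lower were 9, 7, 10 and 1, and 1 complex IV and 1 succinate dehydrogenase gene were higher. The 7 complex I transcripts of the mitochondrial genome went the opposite way. All 7 were higher in B6, with a median of 0.34, and 5 were higher without B6_5 (median 0.28). mt-Nd4l showed the largest difference (1.02 ± 0.07), but PWK enters the mean it is set against. Few counts fell on mt-Nd4l in PWK, at 30.5 ± 5.53 CPM (n = 7) against 1270 CPM in the mean of the others. Whether PWK reads of this gene mapped or were assigned as in the other strains was not tested. mt-Nd3 differed by 0.48 ± 0.08 (adjusted p = 2.00e-06). The complex I assembly factors went both ways in B6. Called lower were Ndufaf5 (-0.36), Ndufaf3 (-0.34), Foxred1 (-0.26) and Nubpl (-0.21), and called higher Tmem126b (0.56), Lyrm2 (0.3) and Acad9 (0.22).

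**Figure D4:**
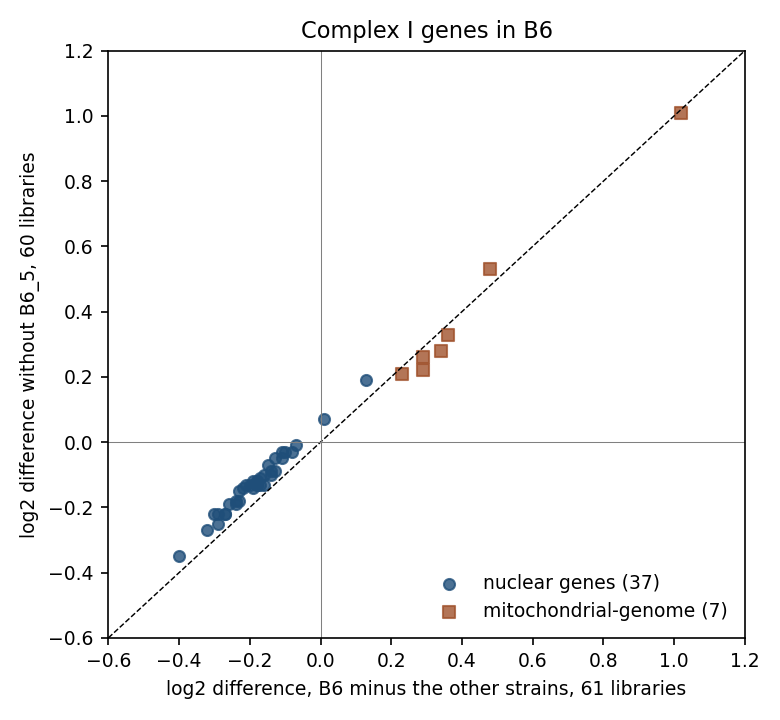
Log2 difference of B6 from the mean of the other strains for the 37 nuclear members (circles) and the 7 mitochondrial-genome complex I transcripts (squares), with all 61 libraries (x axis) and without B6_5 (y axis, 60 libraries). The dashed line marks equal values. Nearly all circles lie below 0 on both axes and all squares above 0, with the circles shifted up by leaving out B6_5.

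**Figure D5:**
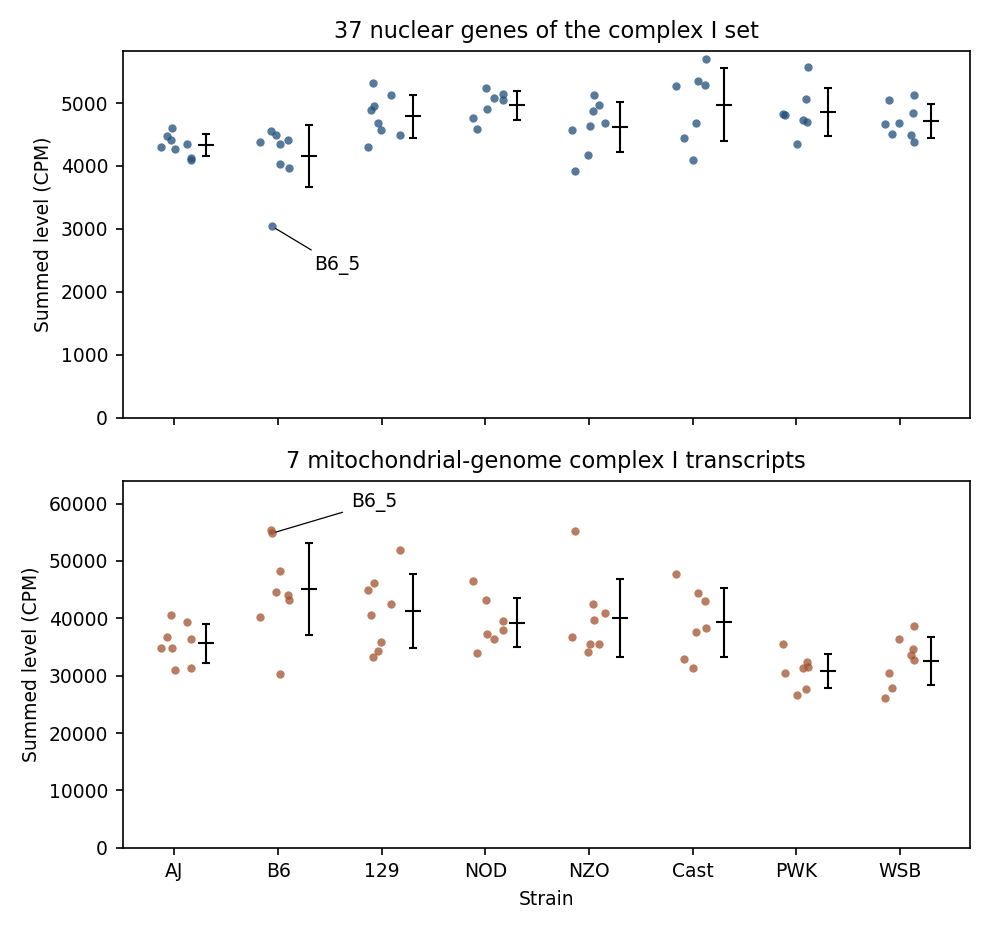
Summed level in CPM (y axes, from 0) of the 37 nuclear genes (top) and of the 7 mitochondrial-genome complex I transcripts (bottom) in each library (points) by strain (x axis), with mean and SD. In the nuclear sum B6_5 stands lowest of all libraries at 3044 CPM, while it is among the highest in the mitochondrial sum.

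In AJ, 14 members were lower and 1 higher (Ndufc2, 0.18 ± 0.06), where 14.9% of all genes tested were lower and 16.8% higher (31.7% either way), with a median of -0.11. The AJ libraries lay close together, with sums over the members of 4101 to 4609 CPM (mean 4333 ± 172, n = 8). Among the largest were the differences of Ndufb5 (-0.36) and Ndufa3 (-0.27 ± 0.06, adjusted p = 0.000262). Of the 15 complex I assembly factors tested, 8 were lower and 1 higher in AJ. The complex III, complex IV and succinate dehydrogenase genes called in AJ were all lower too. ATP synthase genes were called there in both directions.

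NOD had 9 members higher and 0 lower, where 11.9% of all genes tested were higher and 9.79% lower (21.6% either way). The median difference was 0.11, against -0.018 over all genes tested, and 32 of the 37 estimates were above 0. The members varied together within strains, so these estimates are not separate evidence. The members called included the core subunits Ndufv1, Ndufs3 (0.16 ± 0.05) and Ndufs7 (0.18 ± 0.06). The count was 4 with marker sums as covariates and 5 without NOD_2 or without NOD_8. Assembly factors were called higher for 9 of 15 and lower for 2. Ppargc1a, the coactivator that drives mitochondrial genes, was higher in NOD (129 CPM, log2 difference 1.01, adjusted p = 0.000130) and lower in PWK (34.7 CPM, -1.16, adjusted p = 0.000114).

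In 129, 7 members were higher and 0 lower (14.2% of all genes tested higher, 11.4% lower, 25.6% either way), with a median near that of all genes (0.03 against -0.02). NZO had 2 members higher and 5 lower (14.6% and 12.7%, 27.3% either way), and 4 higher and 9 lower without B6_5, which belongs to the mean it is set against. All 8 slow-fibre markers were higher in NZO, with a median of 1.09, while the members' median was -0.03. The slow-fibre sums of NZO libraries ran from 2801 to 10600 CPM (median 4033). The highest, NZO_1, also had the lowest NZO sum over the members (3916 CPM). Over the 61 libraries, after removing strain means, the members' mean level had a correlation of -0.03 with the mean of the slow-fibre markers, 0.74 with that of the fast-fibre markers and 0.84 with that of the skeletal muscle markers. Without B6_5 these were -0.09, 0.63 and 0.80. The fast-fibre and muscle lists share genes, and all of these means share library, depth and scaling.

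The wild-derived strains were less uniform. In Cast 16 members were higher and 7 lower (33.8% and 27.9% of all genes tested, 61.8% either way), in PWK 10 and 5 (20.6% and 20.3%, 41.0% either way) and in WSB 8 and 4 (21.4% and 17.0%, 38.3% either way). Cast was the highest strain for 13 members and the lowest for 3. Cast libraries spread most, with sums over the members of 4098 to 5697 CPM (4976 ± 575, n = 7). Hepatocyte marker sums in Cast ran from 37.7 to 5784 CPM and 6 of 7 brown fat markers were higher there. The brown fat list includes Cox8b (0.32 in Cast) and Cox7a1 (-0.14, not called), which are also counted among the complex IV genes. In WSB, 7 of 7 lymphocyte and 6 of 7 adipocyte markers were higher. Without the 10 libraries high in hepatocyte or lymphocyte markers, 5 members were higher and 9 lower in Cast (30.9% and 25.7% of all genes tested), and 2 higher and 1 lower in WSB (13.6% and 11%). Of the 10, 3 were from Cast and 4 from WSB, so these strains were tested with fewer libraries. Among WSB differences that no longer passed, Ndufc1 was 0.21 (0.17 with all libraries), Ndufa13 -0.2 (-0.26) and Ndufa7 -0.17 (-0.21). Whether the markers or the smaller number of libraries account for the lost calls was not tested. The WSB counts were also 2 higher and 3 lower without WSB_3, and 3 higher and 4 lower without WSB_6. The difference of Ndufs5 in Cast was -0.62 without the 10 libraries, and that of Ndufs4 in WSB was -0.46. Against the 5 classical strains together, the 3 wild-derived strains had 17 members higher and 4 lower, where 32.3% of all genes tested were higher and 26.5% lower (58.7% either way). All these contrasts share libraries, so their counts are not separate evidence. The counts of members in every strain also take Ndufb4 and Ndufab1 as deposited, without the counts of their copies.

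Within strains, the members varied together. After strain means were removed, the median correlation between pairs of members over the 61 libraries was 0.73 (666 pairs) and 0.67 without B6_5, and the first principal component held 72.3% of their variance. These correlations are descriptions, since the genes share libraries, depth and scaling. The 15 assembly factors had a median pairwise correlation of 0.24. Ndufb8 and Ndufb9 followed the mean of the other members most closely (0.95 each), and Ndufa7 and Ndufs4 were among those that did so least (0.64 each). Of 8860 other genes compared, those most like the members' mean were Atp5o (0.95), Cox7c (0.93), Atp5h (0.93), Cox6c (0.92) and Atp5j (0.92), all subunits of ATP synthase or complex IV. The mean of the mitochondrial-genome complex I transcripts had a correlation of 0.08 with that of the members (0.21 without B6_5).

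Because the members varied together, their promoters were read for motifs of factors known to act on respiratory genes. RefSeq promoters on GRCm38.p6 (250 bases before to 50 after the start) matched 33 of the 37. Ndufa2, Ndufb9 and Ndufs1 were among those with no entry. On either strand, the NRF-1 motif, GCGC on either side of 2 free bases, was in 9 promoters (27.3%, against 13.4% of tested genes with an entry and 19.3% of those as abundant as the members). The GABP motif CCGGAAG was in 4 (12.1%, against 17.4% and 16.9%), the YY1 motif, AAN followed by ATGGCGGC, in 4 (12.1%, against 2.4% and 3.8%) and the ERR motif TCAAGGTCA in 0 (against 0.4% and 0.3%). No occurrences of 2 different motifs overlapped in a member's promoter, and 16 members held at least 1. A match is a description of letters and shows no binding. The 100 bases before the start are shown for 3 promoters with an NRF-1 motif and 1 with a GABP motif, with the motif in capitals, and for Ndufc2, the single-locus member with the widest range, which had none of the 4.
Ndufa8 (chr2:36049339-36049438, minus strand): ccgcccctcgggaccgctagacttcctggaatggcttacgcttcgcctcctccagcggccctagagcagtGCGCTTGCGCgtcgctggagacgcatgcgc
Ndufs6 (chr13:73328483-73328582, minus strand): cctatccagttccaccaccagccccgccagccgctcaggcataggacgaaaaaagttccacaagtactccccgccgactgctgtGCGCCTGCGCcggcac
Ndufv2 (chr17:66101560-66101659, minus strand): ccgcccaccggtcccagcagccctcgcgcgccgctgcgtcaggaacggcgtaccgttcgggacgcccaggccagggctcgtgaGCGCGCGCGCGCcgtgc
Ndufs3 (chr2:90904722-90904821, minus strand): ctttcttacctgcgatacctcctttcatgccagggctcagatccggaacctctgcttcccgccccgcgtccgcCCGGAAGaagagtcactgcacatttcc
Ndufc2 (chr7:97399903-97400002, plus strand): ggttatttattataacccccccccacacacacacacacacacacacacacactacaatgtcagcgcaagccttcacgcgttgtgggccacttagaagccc
The motif began 30 bases before the start in Ndufa8, 16 in Ndufs6 and 27 in Ndufs3, and 17 and 15 in Ndufv2, where a run of alternating bases matches at both positions. Of the factors' own transcripts, Gabpa (0.61), Nrf1 (0.59) and Yy1 (0.36) were higher in Cast and Tfam, the mitochondrial transcription factor, was lower there (-0.32), while none of the 8 regulators measured was higher in B6 and 1, Gabpa (-0.15, adjusted p = 0.0411), was lower.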

How the data were processed

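RNA was sequenced from skeletal muscle of 8 strains (61 libraries), grouped by the strain in the labels. The authors deposited a table of expected counts, which are unscaled estimates of reads from each gene, and one of log2-scale variance-stabilised values. Per the submitters' processing notes, GRCm38 and DESeq2 were used; how reads were aligned and counted is not given in the sources used here. Of the deposited counts, 80.4% were whole, so the values were rounded, whereas whole counts had been planned for.

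Counts were tested with edgeR 4.0.16 (R 4.3.3): genes kept by filterByExpr (16682), TMM scaling, 1 factor for strain (53 residual degrees of freedom), and a quasi-likelihood F test with Benjamini-Hochberg adjustment over all genes tested at 0.05. Each strain was set against the mean of the 7 other strain means, and Cast, PWK and WSB against the other 5. Levels are CPM on TMM-adjusted library sizes, and log2 CPM used a prior count of 2. SEs were derived from the log2 difference and its F value (size over root F). On simulated counts for Cast over 16682 genes, 59% of 100 genes changed by 0.5 log2 units and 81% of 100 changed by 1 were recovered. Library totals of 17100000 to 65200000 counts set the depth.

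Near-identical copies were sought with BLAST 2.17.0 among GENCODE M21 transcripts. Alternatives used limma 3.58.1 on the deposited log2-scale values, DESeq2 1.42.0, and other scalings, filters, covariates and sets of libraries. The rule for values by strain covered the 8 members of widest range, the 4 of narrowest and the core subunits. It also covered the 3 largest and 3 smallest called differences of each contrast. Some of these values are not printed in the text, and other members are given by range or count. Outside the members, the rule named called genes of 3 lists (assembly factors, mitochondrial-genome subunits, regulators) and the 5 genes most like the members' mean. One member is counted in the totals, but its own results are not reported here. The members and lists were chosen with earlier results of these data known.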

Additional observations from a re-analysis of the deposited data

Results flagged for a closer look

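In 9 of 112 groups checked (13 members and the members' sum, in 8 strains each), the highest or lowest library lay far from the others by Dixon's criterion. Chance alone flags about 1 in 20 groups. B6_5 accounted for 5 of the 9. Its sum over the members was 3044 CPM, against 3974 to 4553 CPM in the other B6 libraries. It had 38.1 CPM of Ndufs5 (others 59.8 to 78.8), 34.2 of Ndufs6 (53.6 to 67.6), 179 of Ndufv1 (237 to 269) and 122 of Ndufv2 (153 to 172). The other 4 came from 4 libraries. NZO_8 had 78.2 CPM of Ndufs4 (others 95.2 to 109). Cast_8 had 92.7 CPM of Ndufs4 (110 to 123) and 129_1 had 97.0 CPM of Ndufs7 (115 to 129). AJ_6 was the single high library, with 72.4 CPM of Ndufs5 (60.5 to 65.3).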

How the results depend on the processing

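Of the counts of members called, 106 of 110 checks under another scaling, filter, test, covariate or set of libraries stayed within 1.5 times, as did 604 of 610 with 1 library left out. The 6 exceptions with 1 library left out fell on the counts of B6, NOD, NZO and WSB. Under other settings the exceptions were NOD (4 members called) with marker sums as covariates. They were also B6 (17), Cast (14) and WSB (3) without the 10 libraries high in hepatocyte or lymphocyte markers, 4 of them from WSB. That set of libraries, and a term for Xist above Ddx3y, were chosen after seeing the data. With 1 library left out, the counts ran from 34 to 37 for all strains, 13 to 18 for AJ, 16 to 28 for B6, 5 to 7 for 129, 5 to 13 for NOD, 5 to 13 for NZO, 20 to 24 for Cast, 13 to 17 for PWK, 5 to 12 for WSB and 21 to 23 for the wild-derived strains. Of 58 differences of single members, none reversed. Calls were lost for 11 under other settings and for 5 with 1 library left out, among them Ndufc1 in WSB (0.15 without WSB_3 or WSB_5) and Ndufc2 in AJ (0.15 without AJ_5). The cause was not tested.

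Strains share replicate numbers, but libraries with the same number did not deviate together (median correlation 0.01 over 186 pairs), and 8 of 61 libraries correlated best with one of their own number. With the replicate number as a block, the counts were 37 for all strains, 17 for AJ, 27 for B6, 6 for 129, 9 for NOD, 9 for NZO, 23 for Cast, 16 for PWK, 14 for WSB and 22 for the wild-derived strains. Whether reads of all strains mapped equally well to GRCm38 was not tested. Library totals limit the precision of low copies such as Ndufb4c in PWK more than that of the members.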

Other observations

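The assembly factors build complex I but are not part of it. Tmem126b, a membrane protein of the complex that assembles the membrane arm, was lowest in PWK, at 7.59 ± 0.916 CPM (SD, n = 7) against 18.7 CPM in the mean of the others (log2 difference -1.28 ± 0.09, edgeR adjusted p = 8.58e-18), and higher in B6, NOD, AJ and WSB (0.56, 0.51, 0.40 and 0.38). Acad9, which works in the same assembly complex, was lower in Cast (20.1 ± 3.39 CPM, n = 7; -0.69 ± 0.05, adjusted p = 8.64e-18). Ecsit, another partner there, was lower in WSB (39.4 ± 2.48 CPM, n = 8; -0.45 ± 0.04, adjusted p = 1.24e-12). Ndufaf3, an early factor for the Q module, was higher in PWK (0.53 ± 0.08, n = 7) and lower in B6 (-0.34 ± 0.08). Of the 15 tested, 5 were higher and 5 lower in Cast, where 33.8% of all genes tested were higher and 27.9% lower, and PWK had the same numbers (20.6% and 20.3% of all genes tested). Near-identical copies of these genes were not searched for.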
